A study of Arabidopsis thaliana with 16 samples.

Results

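The retinoblastoma-related pathway of Arabidopsis thaliana was examined at 9 genes, which are the pocket protein gene RBR1 (AT3G12280), the E2F genes E2FA (AT2G36010), E2FB (AT5G22220) and E2FC (AT1G47870), the dimerization partner genes DPA (AT5G02470) and DPB (AT5G03415), and the atypical E2F genes DEL1 (AT3G48160), DEL2 (AT5G14960) and DEL3 (AT3G01330). The genes were taken by their TAIR10 locus, out of 27444 protein-coding genes on chromosomes 1 to 5, and each was described by the peaks listed over its gene body and 500 bp on each side. The annotation used here lists E2FA as E2F3, E2FB as E2F1 and E2FC as ATE2F2. The 9 were chosen by gene family and not by a measured value, though earlier results of these data were known at that time.

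RBR1 is the plant relative of the animal retinoblastoma protein. It binds E2F transcription factors and holds back their activity until cyclin-dependent kinases with D-type cyclins phosphorylate it. E2FA, E2FB and E2FC bind DNA as dimers with DPA or DPB. E2FA and E2FB are best known as activators of genes for DNA replication and the cell cycle, and E2FC as a repressor of cell division. The DEL proteins carry a duplicated DNA-binding domain, bind E2F sites without a DP partner and lack a transactivation domain. In the stomatal lineage RBR1 limits division, and it binds the bHLH factor FAMA, which drives guard cell differentiation, through a short motif in FAMA. The LGK form of FAMA is altered in that motif.

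The study used chromatin immunoprecipitation and sequencing (ChIP-seq) on guard cells sorted by fluorescence from protoplasts of aerial seedling tissue at 12 days post germination, from plants kept at 22 °C under light for 16 h and dark for 8 h a day. The genotypes were Wild Type (WT here) and fama-1, FAMAp:FAMA-LGK (FAMA-LGK here), a fama-1 mutant that carries the altered FAMA under the FAMA promoter. H3K4me3, which in plants sits over the first nucleosomes of transcribed genes, and H3K27me3, the mark set by Polycomb repressive complex 2, were each mapped with 2 ChIP and 2 input libraries per genotype, 16 libraries in all. The values used here come from 4 deposited lists of peaks, and each list holds 1 mark in 1 genotype, with its replicates combined. In sorted bulk cells, fewer cells with a mark and less of the mark per cell cannot be told apart. No value per replicate was used, so no replicate error or test stands behind any difference, and depth is unknown because the lists hold no counts of reads.

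There were 16036 (WT) and 15989 (FAMA-LGK) H3K4me3 peaks and 7386 and 7652 H3K27me3 peaks. All 10 guard cell markers (FAMA, GC1, KAT1, SLAC1, MYB60, SCAP1, OST1, HT1, BLUS1 and GORK) had an H3K4me3 call in the WT list and 8 in the FAMA-LGK list, and their summed covered length was 21910 bp in the WT list and 11072 bp in the FAMA-LGK list. GC1 and GORK were at 0 bp in FAMA-LGK. FAMA had 2886 and 627 bp, the largest drop of the 10. It is also the gene altered between the genotypes, so it cannot be read as a cell marker alone. Of 8 markers of other leaf or shoot cells, 6 were called for H3K4me3 in both genotypes, and the summed lengths over the 8 were 8696 and 9751 bp. The companion cell gene SUC2 (661 and 1423 bp) and the epidermal gene ATML1 (2292 and 2567 bp) were longer in FAMA-LGK by at least 200 bp, the mesophyll genes RBCS1A, CA1 and LHCB2.1 and the trichome gene GL2 differed by at most 65 bp, the xylem gene VND7 had 118 and 74 bp, and the trichome gene GL1 was at 0 bp in both. H3K27me3 was called in both genotypes at GL1, GL2, SUC2 and VND7, and at the guard cell marker SCAP1 in FAMA-LGK alone, with 562 bp. What part these marker differences have in the values below was not tested.

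All 9 genes carried H3K4me3 in both genotypes and none carried H3K27me3 in its body in either. A gene was called marked where listed peaks covered at least 150 bp of its body. By that rule H3K4me3 was called at 9 of 9 genes in WT and at 9 of 9 in FAMA-LGK, where the same rule called 62.2% of all protein-coding genes in each list. Among the 8905 protein-coding genes as long as these 9 (2558 to 6011 bp), the shares were 79.7% (WT) and 80.3% (FAMA-LGK). No member was called in 1 genotype alone, where 2.03% of all genes were called for H3K4me3 only in the WT list and 1.99% only in the FAMA-LGK list. H3K27me3 was called at 0 of 9 genes in each list, against 24.4% of all genes in each list, and 16.0% (WT) and 15.9% (FAMA-LGK) of genes as long as the members. Of all genes, 1.39% were called for H3K27me3 only in the WT list and 1.37% only in the FAMA-LGK list. A gene without a listed peak may have the mark below the authors' threshold.

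**Figure D1:**
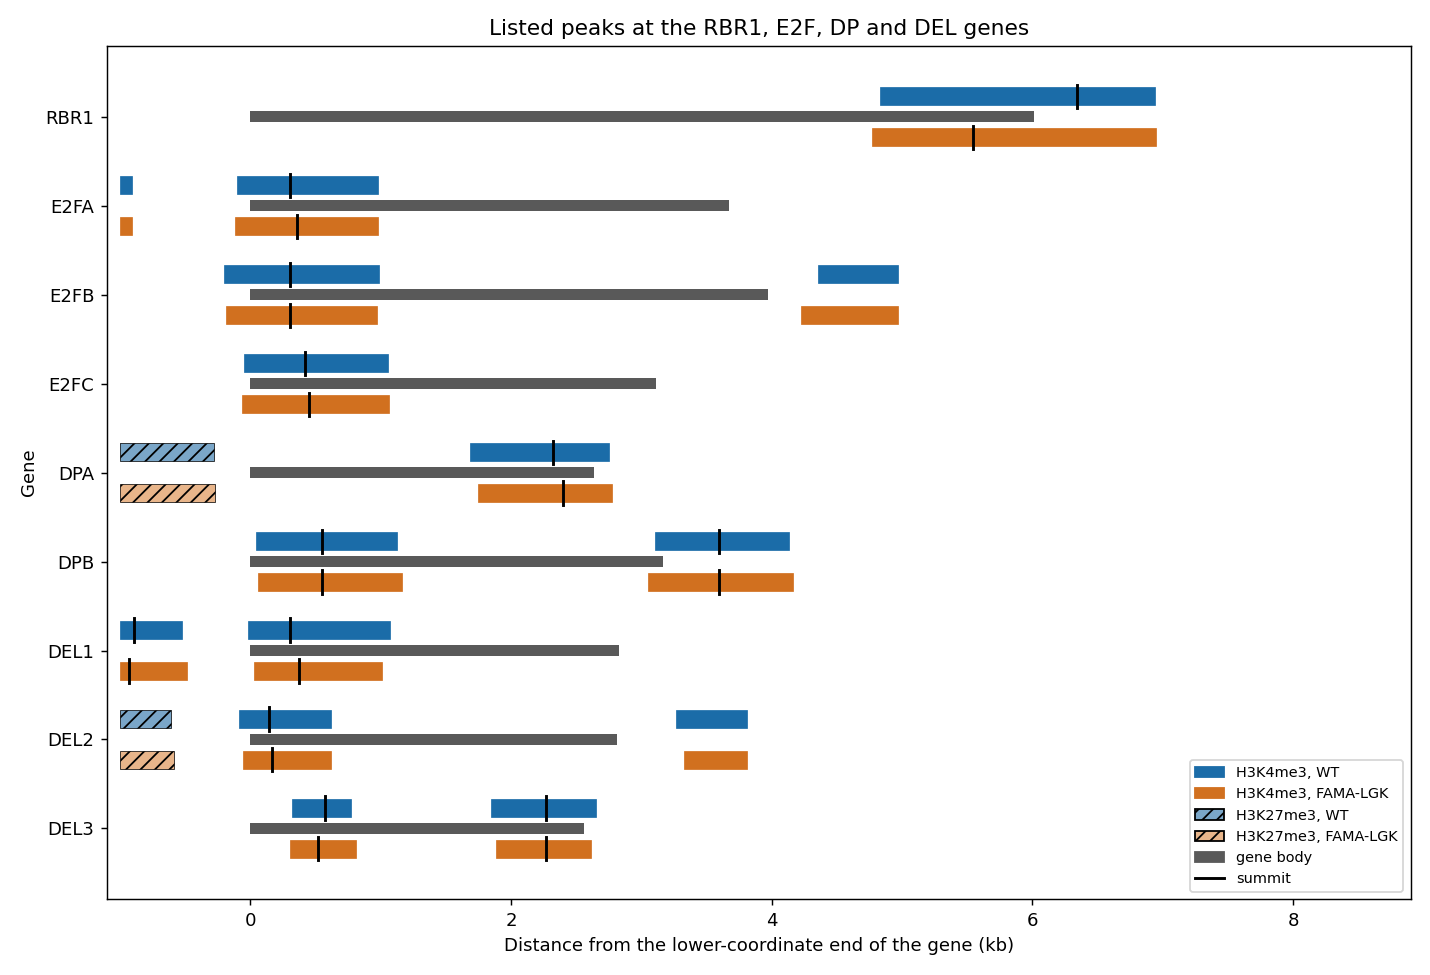
Listed peaks within 1000 bp of each gene, by distance from the gene end with the lower coordinate (kb); grey bars are gene bodies, blue and orange bars H3K4me3 peaks in the WT and FAMA-LGK lists, hatched bars H3K27me3 peaks, black ticks summits, and peaks are cut at 1000 bp from the gene. In all 9 genes the main H3K4me3 peak lies at 1 end of the body in both genotypes, and hatched bars lie beside DPA and DEL2, outside their bodies.

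The main peak lay at 1 end of each gene and left most of the body uncovered, and at DEL3 a second peak lay toward the other end. Listed H3K4me3 covered 19.6 to 45.5% of the gene body in WT and 20.6 to 46.0% in FAMA-LGK. For scale, 21.7% of all protein-coding genes had at least 50% of the body covered in both genotypes. That share includes genes without the mark and short genes and was not matched for length. It thus does not show that partial coverage is particular to these 9 genes. The gene table gives no strand, so the end with the mark cannot be named here as start or stop. The main peak of a gene, the peak with the most bases in its body, had a FAMA-LGK counterpart that overlapped it at each of the 9 genes.

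RBR1 had the widest H3K4me3 peak of the 9 genes. In the WT list this peak spanned 3918183 to 3920286 on chromosome 3 (TAIR10), with a width of 2104 bp, wider than 92.7% of the peaks of that list. Its FAMA-LGK peak lay at 3918119 to 3920295, with a width of 2177 bp. The covered length of RBR1, counted within the gene and its 500 bp flanks, was 1677 bp in the WT list and 1741 bp in the FAMA-LGK list. The peak runs beyond RBR1 into AT3G12290, whose annotated end lies 103 bp away, so 1 listed peak serves both genes. This peak thus cannot be credited to RBR1 alone.

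The place of the summit within that peak differed between the lists. In WT the summit lay at position 3919691, inside AT3G12290 and 332 bp outside RBR1. In FAMA-LGK it lay at position 3918896, inside RBR1 and 463 bp from its end. The 2 summits are 795 bp apart, whereas the outer edges of the peak moved by 64 and 9 bp. Over 15045 pairs of H3K4me3 peaks that overlapped 1 to 1 between the lists, the median summit shift was 40 bp, and 0.592% of pairs had a shift of 795 bp or more. Among the 1036 pairs with a WT peak at least as wide, 6.18% did. The authors' fold of ChIP over control at this peak was 5.96 in the WT list, whose median fold was 5.04, and 4.48 in the FAMA-LGK list, whose median fold was 4.58. Of all the paired peaks, 74.6% had a lower fold in FAMA-LGK. A lower fold in FAMA-LGK, here or at the genes below, thus does not by itself show a loss particular to that gene. Whether the fold of any gene fell by more than that of the other peaks was not tested.

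The activator genes E2FA and E2FB had almost the same main peak in both genotypes. The E2FA peak spanned 15119414 to 15120494 on chromosome 2 in the WT list (1081 bp) and 15119401 to 15120498 in the FAMA-LGK list (1098 bp). The 2 peaks shared 98.5% of the bases that either covered, above the median share of 91.9% over the paired peaks. E2FB had a main peak at chromosome 5, 7360336 to 7361523 in WT and 7360348 to 7361505 in FAMA-LGK, with summits 2 bp apart. It was among the stronger peaks of its lists, with a −log10 q higher than 90.2% of the WT peaks and 92.9% of the FAMA-LGK peaks.

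The covered length of E2FB was 1301 bp in the WT list and 1408 bp in the FAMA-LGK list, which was the largest difference among the 9 genes. It came from a second peak outside the gene. That peak has its summit in CAF1b (AT5G22250), covers the neighbour OFP10 (AT5G22240) in part and reached 113 bp into the E2FB flank in the WT list and 250 bp in the FAMA-LGK list. Over the gene body alone, E2FB had 989 bp in the WT list and 971 bp in the FAMA-LGK list.

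E2FC, the repressor of cell division, had 1 peak in each list. It lay at chromosome 1, 17634650 to 17635750 in WT and 17634632 to 17635763 in FAMA-LGK, with covered lengths of 1101 and 1132 bp. Its −log10 q was higher than 79.5% of the WT peaks and 91.1% of the FAMA-LGK peaks. Its authors' fold was 6.21 in the WT list and 6.26 in the FAMA-LGK list. E2FB and DPB also stood above 75% of the peaks in both lists, and the other 6 genes did not.

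The dimerization partner genes DPA and DPB differed from each other in the strength of the mark. DPB had a main peak at chromosome 5, 842332 to 843412 in WT and 842346 to 843456 in FAMA-LGK, with folds of 6.04 and 5.65 and summits 3 bp apart. A second peak with its summit in the neighbour AT5G03420 reached 64 bp into the DPB body in the WT list and 116 bp in the FAMA-LGK list. The covered length of DPB was 1645 bp in the WT list and 1727 bp in the FAMA-LGK list with that second peak included.

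DPA had a weaker peak, at chromosome 5, 544002 to 545068 in WT and 544064 to 545095 in FAMA-LGK. Its folds were 4.07 and 2.94, and its −log10 q was higher than 30.0% of the WT peaks and 19.1% of the FAMA-LGK peaks. The covered length of DPA was 1067 bp in the WT list and 1032 bp in the FAMA-LGK list. Of the 9 genes, DPA was also the only one with listed H3K27me3 within 500 bp. A wide H3K27me3 peak with its summit in AT5G02460 lay at 537568 to 542036 in WT and 537501 to 542048 in FAMA-LGK. It ended 282 bp (WT) and 270 bp (FAMA-LGK) before the DPA body, at the end away from the H3K4me3 peak. This H3K27me3 peak was a strong one, with a −log10 q higher than 98.2% of the WT and 98.8% of the FAMA-LGK list. In all, 29.1% of protein-coding genes had H3K27me3 within 500 bp in both genotypes.

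The main peaks of the atypical E2F genes had the lowest −log10 q of the 9 genes in both lists, with DPA next above them. DEL1, which in Arabidopsis is known to repress the endocycle gene CCS52A2, had a main peak at chromosome 3, 17783310 to 17784404 in WT and 17783361 to 17784342 in FAMA-LGK. Its folds were 3.89 and 2.93, and its −log10 q was higher than 24.7% and 15.8% of the peaks of its lists. Its covered length was 1095 bp in the WT list and 996 bp in the FAMA-LGK list, the latter with 14 bp of a peak of the neighbour APC8. In WT the APC8 peak was listed too, 523 bp from DEL1 and so outside the flank.

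DEL2 had a main peak at chromosome 5, 4843765 to 4844477 in WT and 4843795 to 4844476 in FAMA-LGK. Its body coverage was 623 bp in the WT list and 622 bp in the FAMA-LGK list, so the body coverage differed by 1 bp. The covered lengths with flanks were 760 and 682 bp. The edge of the main peak in the flank moved by 30 bp, and 47 bp of a peak of AT5G14970 lay within the other flank in WT. In FAMA-LGK that neighbouring peak began 514 bp from DEL2. A weak H3K27me3 peak ended 606 bp from DEL2 in the WT list and 585 bp in the FAMA-LGK list, with folds of 2.14 and 2.48 and no protein-coding gene at its summit.

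DEL3 had 2 separate peaks with summits inside its body in both genotypes, and no other of the 9 genes did. The peak near the upper end lay at chromosome 3, 126166 to 126972 in WT and 126207 to 126934 in FAMA-LGK, with folds of 2.43 and 2.62. The smaller peak lay at 124639 to 125090 in WT and 124621 to 125126 in FAMA-LGK, with folds of 1.91 and 1.82. That smaller peak was near the bottom of its lists, with a −log10 q higher than 2.5% of the WT peaks and 1.5% of the FAMA-LGK peaks. It was listed in both genotypes all the same, and the covered length of DEL3 was 1259 bp in the WT list and 1234 bp in the FAMA-LGK list.

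**Figure D2:**
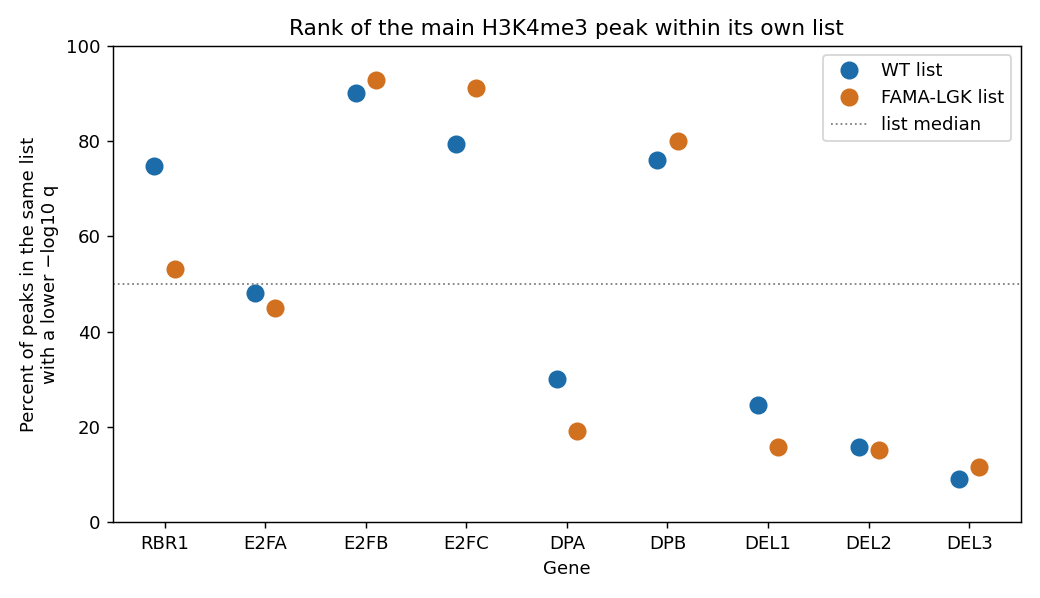
Rank of each gene's main H3K4me3 peak within its own list, as the percent of peaks of that list with a lower −log10 q, for the WT (blue) and FAMA-LGK (orange) lists; the dotted line is the list median. E2FB, E2FC and DPB stand above 75% in both lists and the 3 DEL genes below 25%, as does DPA in FAMA-LGK alone (19.1%). RBR1 stands at 74.8% (WT) and 53.2% (FAMA-LGK), but its peak is shared with AT3G12290, where the WT summit lies.

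The main peaks of the 6 RBR1, E2F and DP genes had a median rank of 75.4% in WT, with a range of 30.0 to 90.2%, and those of the 3 DEL genes of 15.7%, with a range of 9.0 to 24.7%. In FAMA-LGK the medians were 66.7% (19.1 to 92.9%) and 15.2% (11.6 to 15.8%). The lowest of the 6, DPA (30.0% in WT and 19.1% in FAMA-LGK), stood only a little above the highest of the 3, DEL1 (24.7% and 15.8%). The rank of RBR1 in these medians belongs to the peak shared with AT3G12290, whose WT summit lies outside RBR1. With all genes called for H3K4me3, the median rank was 54.0% in WT and 53.7% in FAMA-LGK. These ranks place a peak within its own list, and they do not measure a change between lists. The peaks of 1 genotype come from the same libraries, so the order in a list is 1 observation of these genes, and the difference between the 2 groups was not tested.

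Between the genotypes, no member differed in H3K4me3 covered length by as much as 200 bp. Such a difference was found at 22.3% of the 19322 protein-coding genes with listed H3K4me3 in either genotype, as 12.3% longer and 10.0% shorter in FAMA-LGK. The 0 of 9 stands beside that share as a description only. The differences of the members ran from -99 bp at DEL1 to 107 bp at E2FB, with a median of 17 bp, where all genes had a median of 13 bp. Covered length was longer in FAMA-LGK at RBR1, E2FA, E2FB, E2FC and DPB, by 64, 17, 107, 31 and 82 bp. It was shorter at DPA, DEL1, DEL2 and DEL3, by 35, 99, 78 and 25 bp. Among all genes with the mark, 55.4% were longer and 43.9% shorter by any amount. The sign at E2FB and DEL3 was the opposite over the gene body alone (-18 and 13 bp).

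**Figure D3:**
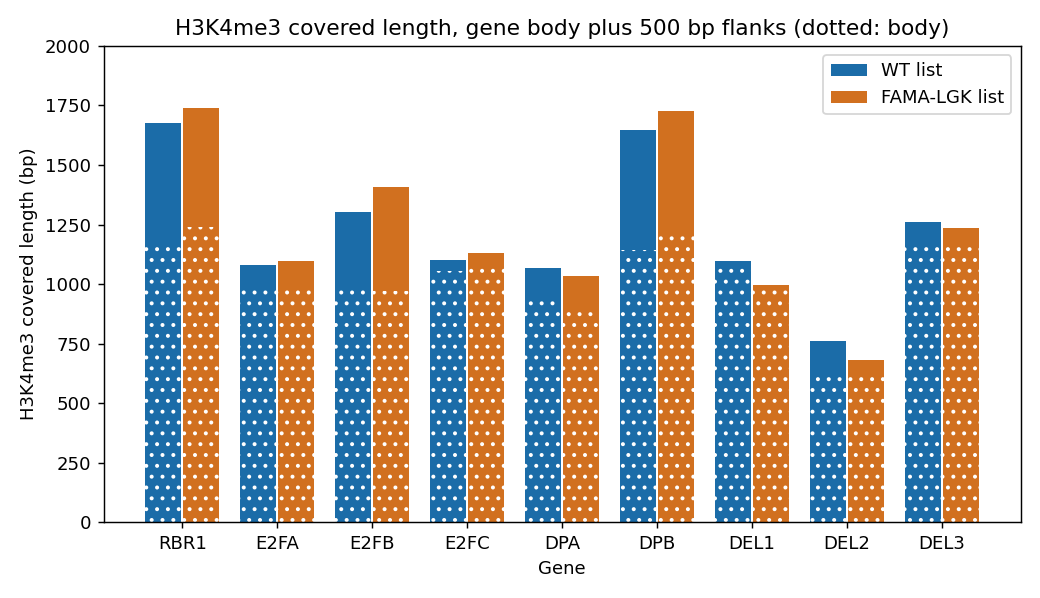
H3K4me3 covered length in bp of each gene with its 500 bp flanks, in the WT (blue) and FAMA-LGK (orange) lists; the dotted part of a bar is the part within the gene body, and there are no error bars because each list stands for its replicates together. The bars of a gene differ by at most 107 bp, and DEL2 has the shortest, at 760 and 682 bp.

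The edges of the main peaks also lay close together in the 2 lists. Over the 18 edges of the 9 main peaks, the shift between genotypes ran from 1 to 64 bp with a median of 22.5 bp, where all paired peaks had a median of 39.0 bp. The paired main peaks shared 89.7% (DEL1) to 98.5% (E2FA) of the bases that either covered. At 8 of the 9 genes the summits were less than 100 bp apart, RBR1 being the exception. Such small shifts are common, since the median summit shift over all paired peaks was 40 bp and 13.5% had a shift of 110 bp or more. The share of all pairs below 100 bp itself was not counted.

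H3K27me3 outside the windows lay at different distances. The nearest listed peak was 18652 bp from RBR1 in the WT list and 18801 bp in the FAMA-LGK list, and 23925 and 23908 bp from DPB. It was 6849 and 6850 bp from E2FA and 5154 and 5242 bp from DEL1. For E2FC it was 3069 bp in the WT list and 2538 bp in the FAMA-LGK list, at a strong peak of 4252 and 4920 bp in width. For DEL3 it was 1743 and 1764 bp. For E2FB the nearest peak was not the same one in both lists, at 2718 bp on the upper side in WT and 2307 bp on the lower side in FAMA-LGK.

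The other genes of the pathway were described from a list of 18 kinases and partners of RBR1 and a list of 22 E2F target genes. The partner list holds CDKA;1 and D-type cyclin genes, whose products phosphorylate RBR1, members of the DREAM complex in which RBR1 and E2F proteins act (MYB3R, TCX, TSO1, SOL and ALY genes and MSI1), and the F-box genes SKP2A and FBL17. All 18 were called for H3K4me3 in both genotypes, where the same rule called 62.2% of all protein-coding genes in each list. None was called for H3K27me3, against 24.4% of all genes in each list. These shares were not matched for the length of the partner genes. Their covered length was longer in FAMA-LGK by at least 200 bp at 4 genes (22.2%) and shorter at 1 (5.56%), beside the 12.3% and 10.0% of all genes given above, and the median difference was 53 bp. The longest gains were at the tesmin-like genes SOL1 (1204 and 2107 bp) and SOL2 (2030 and 2547 bp) and at CYCD3;1 (2041 and 2338 bp). With each list limited to its upper 50% of peaks by −log10 q, 3 partners were longer and 5 shorter, with a median difference of 0 bp. The main peaks of SOL1, SOL2 and CYCD3;1 rank below that cut in both lists. A peak near the cut can also drop out of 1 list only, so these counts cannot show whether the balance holds. The loss among all listed peaks was at MYB3R1, a MYB factor of mitotic genes, with 1847 bp in the WT list and 1540 bp in the FAMA-LGK list.

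Among the 22 target genes, 20 had an H3K4me3 call in the WT list and 22 in the FAMA-LGK list, where 62.2% of all genes had one in each list. Covered length was longer by at least 200 bp in FAMA-LGK at 10 genes (45.5%) and shorter at 1 (4.55%), beside 12.3% and 10.0% of all genes, with a median difference of 144 bp. With each list limited to its upper 50% of peaks by −log10 q, a cut that leaves out most target peaks, 1 target was longer and 2 were shorter. Called in FAMA-LGK alone, as were 1.99% of all genes, were the replication licensing genes MCM3, with 848 bp at chromosome 5, 18772893 to 18773740, and MCM6, with 553 bp at chromosome 5, 18010085 to 18010637. Both peaks were weak, with folds of 1.78 and 2.16 and a −log10 q higher than 1.1% and 6.9% of their list. MCM7 had 1582 bp in the WT list and 2259 bp in the FAMA-LGK list. The 1 shorter gene was RNR2A, which encodes a small subunit of ribonucleotide reductase, with 1599 and 1168 bp.

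The main peaks of the targets had a median rank of 12.7% in WT, with a range of 2.0 to 75.9%, and of 14.5% in FAMA-LGK, with a range of 1.1 to 81.2%. H3K27me3 was called at 1 of 22 targets in the WT list and at 0 in the FAMA-LGK list, against 24.4% of all genes in each list. That target was the origin recognition complex gene ORC1B, called in WT alone, as were 1.39% of all genes. Its peak spanned 7461756 to 7462299 on chromosome 4, with a fold of 2.22 and a −log10 q higher than 25.7% of the WT list. CCS52A2, the target of DEL1 named above, had 1104 and 1016 bp of H3K4me3. These lists were chosen with earlier results on the MCM, SOL and CYCD3;1 genes known, so their counts are no independent evidence of a direction, and the difference between them and the 9 genes was not tested.

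**Figure D4:**
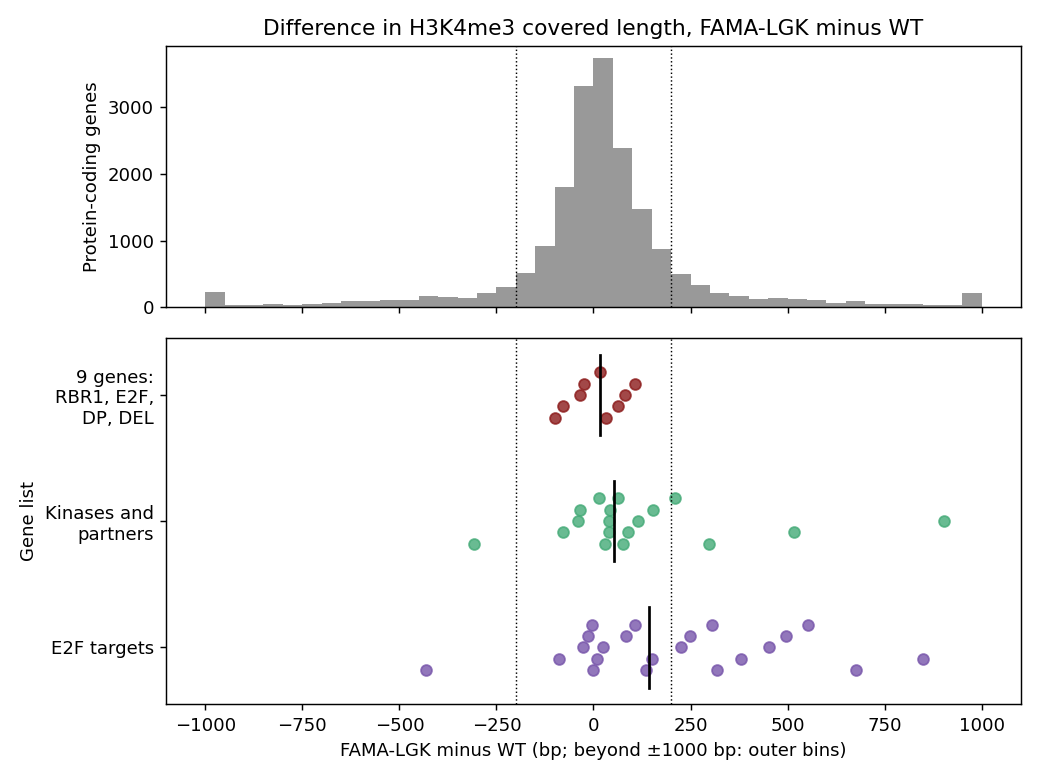
Difference in H3K4me3 covered length, FAMA-LGK minus WT, in bp; the upper panel counts the 19322 protein-coding genes with the mark in either list, and in the lower panel each point is a gene of 1 of 3 lists, the black bars are medians and the dotted lines mark 200 bp either way. All 9 RBR1, E2F, DP and DEL genes lie between -99 and 107 bp, and 10 of 22 target genes lie beyond 200 bp on the longer side.

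Of the 40 listed partners and targets, those with covered lengths most like RBR1 over the 4 lists were TSO2, FBL17 and MSI1. The likeness is the sum of the absolute differences in covered length from RBR1, which was 186, 199 and 211 bp. Neither RBR1 nor these genes had H3K27me3 covered length, so the sums come from the H3K4me3 lists alone. The RBR1 lengths belong to the peak shared with AT3G12290. Gene length was not considered, and RBR1 is 6011 bp long, against 1780 (TSO2), 3485 (FBL17) and 2234 bp (MSI1).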

How the data were processed

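Per the labels, each deposited peak list belongs to 1 mark in 1 genotype and stands for 2 ChIP and 2 input libraries. Per the submitters' processing notes, CASAVA 1.8.2, Bowtie2, MACS2 and TAIR10 were used, in roles left unstated. The peak threshold and the combining of replicates were not given in the sources used here. The authors' lists give for each peak a score (not used), a fold (ratio of ChIP over control) and a −log10 q-value. Ranks were taken only within a list. Folds were compared across lists only as the share of paired peaks with a lower fold in FAMA-LGK. Values per replicate were not used, so same-numbered replicates could not be compared.

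Genes were placed and named with a RefSeq table of the assembly TAIR10.1. With WT H3K4me3 summits shifted by up to 1000 bp in steps of 100 bp, the share inside genes was highest with no shift on each chromosome (95.4 to 97.0%). Touching peaks were merged, and bp covered were counted in the gene body, or in the body plus 500 bp on each side (covered length), with Python 3.11.15 and pandas 2.3.3. The counting was tested on simulated data. All 9 members are named; of the other lists, genes called in 1 genotype alone and up to 3 genes with the largest gains and losses of at least 200 bp, plus CCS52A2, named after its values were seen. Members and lists were chosen with earlier results of these data known. A planned search for E2F motifs in promoters was not run, since no promoter sequences were used here. Alternatives changed the peak threshold, flank, merging, call rule and the 200 bp limit.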

Additional observations from a re-analysis of the deposited data

How the results depend on the processing

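At none of the 9 genes did the difference in H3K4me3 covered length reach 200 bp under any alternative tried. Differences this small could not turn past that limit, so this says nothing about their direction. Over the gene body alone the sign turned at E2FB (107 to -18 bp) and DEL3 (-25 to 13 bp). Counts of the 9 genes called for H3K4me3 were 4 (WT) and 4 (FAMA-LGK) if each list was cut to its upper 50% by −log10 q, and 0 and 0 with 50% of the gene required. With a summit required inside the gene, 1 gene (RBR1) was called in FAMA-LGK alone. With a limit of 100 bp, 1 gene (E2FB) was longer in FAMA-LGK.

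In the upper 50% by −log10 q, partners called were 11 (WT) and 9 (FAMA-LGK), 4 and 2 of them in 1 genotype alone, and 3 were longer and 5 shorter. Targets called were 6 and 4, 2 and 0 of them in 1 genotype alone, 1 longer and 2 shorter, a median difference of 0 bp, and 0 called for H3K27me3 in WT. The 50% left out holds most target peaks and the main peaks of the partners SOL1, SOL2 and CYCD3;1. These values thus cannot show whether the difference of either list holds. With 50% of the gene required, partners called were 1 and 2 (1 in FAMA-LGK alone), targets 2 and 2 (0 in FAMA-LGK alone), and 0 targets had H3K27me3. Over the gene body alone, 2 partners were longer and 0 shorter, and 0 targets were shorter. With a limit of 400 bp, 2 partners and 5 targets were longer and 0 partners shorter; the limits of 100 and 400 bp were applied to these lists after the data were seen. The other alternatives kept each count within 1.5 times and each median within 100 bp. No paired analysis was possible because each list stands for its replicates together, and for the same reason no replicate could be left out. Depth is unknown.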
